A study of Homo sapiens with 2 samples.

Results

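VTCN1, GABRP, ITGB6, XAGE2, L1TD1, IGDCC3, ELF3 and HPGD are 8 genes that were chosen, out of the 36601 genes in the deposited count matrix, by their level. They were selected on RNA counts of these same cells, being high in an epithelial cell group, and because several of them are known from amnion and surface epithelia. Their levels in the 3 cell classes below are therefore a description, and no test was made of them. The classes were set by other genes. Epithelial-type cells had under 1000 CPM of TNNT2, the cardiac troponin T gene, under 1000 CPM of COL1A1, a collagen gene of fibroblasts, and at least 4 transcript counts of GATA3, CLDN4 and WNT6 together. CPM are a gene's counts scaled to a fixed total of the RNA counts of a cell or class. Cardiomyocytes had at least 2000 CPM of TNNT2, and fibroblast-like cells had under 1000 CPM of TNNT2 and at least 2000 CPM of COL1A1. Of 11211 kept cells, 4003 (35.7%) were epithelial-type, 5516 were cardiomyocytes and 617 were fibroblast-like. Another 462 cells had low TNNT2, low COL1A1 and fewer than 4 counts of the 3 epithelial rule genes, and 613 lay between the limits.

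All of these cells came from 1 culture of HES2, an established human embryonic stem cell line, after a differentiation towards pacemaker cells like those of the sinoatrial node, which the labels abbreviate as SANLPC. The study set out to describe the cell kinds and transcriptomes of the node and of such cultures. No treatment, genotype or time point was compared, and neither a control culture nor the age of the culture is given in the sources used here. The cells carried a barcoded antibody against CD34, so that 2 libraries, RNA and antibody tags, were made from the same live single cells and share their 14829 barcodes. With 1 culture there are no replicates. Every interval given is an exact 95% interval that covers counting error only, and PCR or culture variation is not in it.

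Median depth over the kept cells was 16607 RNA counts, each count being 1 unique molecular identifier (UMI), and the 3 classes were of like depth. The medians were 17498 UMIs in epithelial-type cells, 16209 in cardiomyocytes and 18537 in fibroblast-like cells. The classes were described on marker lists that the rule did not use. These lists were chosen with earlier results of these data known, so their counts are a description and not a check. All 14 genes of the list of epithelial adhesion genes and keratins were higher in epithelial-type cells than in both other classes, by a ratio of 2 or more. Of all genes at a floor of 5 CPM averaged over the classes, 15.3% were so over cardiomyocytes and 9.79% over fibroblast-like cells. For each of the 14, the level in epithelial-type cells alone was enough for that floor. All 10 cardiomyocyte list genes were lower in epithelial-type cells than in cardiomyocytes, at a summed 932.9 CPM in epithelial-type cells and 40020 CPM in cardiomyocytes. The fibroblast list was less clear-cut, since its summed level was 5355 CPM in epithelial-type cells, 756.8 CPM in cardiomyocytes and 16570 CPM in fibroblast-like cells.

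The amnion is the thin epithelium that lines the fluid sac around the embryo, and surface ectoderm is the embryonic layer that gives rise to the epidermis. Both are simple epithelia early on, both are patterned by BMP signals, and both use transcription factors of the TFAP2 and GATA families. Human pluripotent stem cells exposed to BMP can form amnion-like epithelium, and BMP signalling is also used to direct such cells towards cardiac mesoderm. VTCN1 and GABRP are widely used as amnion markers in such cultures. The other genes have broader roles, which are given where each is described.

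The genes lie on 5 autosomes and the X chromosome. In the RefSeq annotation of GRCh38.p14, L1TD1 is at chr1:62194849-62212328, VTCN1 at chr1:117143587-117210927 and ELF3 at chr1:202010587-202017183. ITGB6 is at chr2:160099671-160200272, HPGD at chr4:174490175-174522893 and GABRP at chr5:170782720-170814047. IGDCC3 is at chr15:65327127-65378002 and XAGE2 at chrX:52369021-52375680. The 3 genes on chromosome 1 do not neighbour each other. All 8 are protein-coding. Promoter sequences were looked up because the genes were high in the same cells. RefSeq promoters, 250 bases before and 50 bases after a start site, were found for 7 of the 8 genes, with 2 for HPGD. They were searched on both strands for short core motifs of factors found in epithelia. The 3 printed here are the promoters of VTCN1 and HPGD, where the TFAP2 core GCCNNNGGC occurred, and of ELF3, which has a TATA box. Capitals mark the motif. VTCN1 is shown at chr1:117210878-117211177 (minus strand), HPGD at chr4:174522439-174522738 (minus strand) and ELF3 at chr1:202010337-202010636 (plus strand).
VTCN1: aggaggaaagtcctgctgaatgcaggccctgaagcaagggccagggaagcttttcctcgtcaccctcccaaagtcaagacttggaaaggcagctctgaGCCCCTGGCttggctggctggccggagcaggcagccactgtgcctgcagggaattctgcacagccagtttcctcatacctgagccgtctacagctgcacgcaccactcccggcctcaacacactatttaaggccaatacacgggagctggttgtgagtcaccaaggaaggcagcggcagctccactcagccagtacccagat
HPGD: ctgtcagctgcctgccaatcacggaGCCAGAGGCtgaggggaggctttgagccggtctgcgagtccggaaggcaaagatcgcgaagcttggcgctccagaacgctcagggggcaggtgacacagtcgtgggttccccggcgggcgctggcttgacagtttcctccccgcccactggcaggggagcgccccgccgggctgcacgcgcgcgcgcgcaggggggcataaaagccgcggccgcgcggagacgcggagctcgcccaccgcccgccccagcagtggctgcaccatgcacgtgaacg
ELF3: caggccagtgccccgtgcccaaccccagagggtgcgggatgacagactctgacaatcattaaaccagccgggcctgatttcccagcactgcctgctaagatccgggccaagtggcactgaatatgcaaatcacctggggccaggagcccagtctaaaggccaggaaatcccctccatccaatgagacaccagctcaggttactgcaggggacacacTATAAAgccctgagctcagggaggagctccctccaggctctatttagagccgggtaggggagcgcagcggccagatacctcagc

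The promoters did not share 1 motif. The TFAP2 core was in 2 of the 8 entries, against 23.2% of all 35116 RefSeq promoters of that length. The TEAD core GGAATG was in those of XAGE2 and L1TD1, against 14.0% of all, and the ETS core CCGGAAG was in that of HPGD, against 10.3% of all. TATAAA was in that of ELF3 and in 11.5% of all promoters. The GATA core AGATAA (10.3% of all) and the GRHL core AACCNGTT (1.73% of all) were in none of the 8, which says only that these letters are not in these windows.

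VTCN1, known as B7-H4, is a ligand of the B7 family that restrains T cells. It had 535.1 CPM in epithelial-type cells, 32.4 CPM in cardiomyocytes and 31.0 CPM in fibroblast-like cells. The ratio of epithelial-type cells over cardiomyocytes was 16.5 (15.9 to 17.2), and over fibroblast-like cells 17.3 (15.6 to 19.2). The intervals of both other classes overlapped, so their order was not resolved. Among the 9 other B7 family genes, only CD276 reached the floor of 5 CPM averaged over the 3 classes. CD276 had 29.1 CPM in epithelial-type cells, 24.8 CPM in cardiomyocytes and 79.6 CPM in fibroblast-like cells. CD274, which encodes the checkpoint ligand PD-L1, was at 0.168 CPM in epithelial-type cells, and 7 of the 9 were under 1 CPM there.

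GABRP encodes the pi subunit of the GABA-A receptor, a chloride channel subunit found mainly outside the nervous system, in epithelia. It had 1549 CPM in epithelial-type cells, 108.4 CPM in cardiomyocytes and 95.7 CPM in fibroblast-like cells. The ratios were 14.3 (14.0 to 14.6) over cardiomyocytes and 16.2 (15.3 to 17.2) over fibroblast-like cells. Over all cells of each class, the level was slightly higher in cardiomyocytes than in fibroblast-like cells beyond counting error. In those with 0 counts of the epithelial rule genes the intervals overlapped. GABRP was there at 21.9 CPM (20.8 to 23.1) in cardiomyocytes and 22.3 CPM (18.9 to 26.0) in fibroblast-like cells. The pi subunit forms channels with other subunits, and those were scarce. Of 18 other GABA-A subunit genes, 16 were under 1 CPM in epithelial-type cells. GABRG3 was at 13.0 CPM in epithelial-type cells, 0.914 CPM in cardiomyocytes and 10.2 CPM in fibroblast-like cells. No alpha subunit gene passed 1 CPM in epithelial-type cells.

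ITGB6 encodes the beta 6 integrin chain, which pairs with the alpha v chain in epithelia and activates latent TGF-beta. It had 356.2 CPM in epithelial-type cells, 25.1 CPM in cardiomyocytes and 23.8 CPM in fibroblast-like cells, with ratios of 14.2 (13.6 to 14.8) and 14.96 (13.3 to 16.9). Its partner ITGAV was not a class marker, with 134.7 CPM in epithelial-type cells, 98.7 CPM in cardiomyocytes and 124.8 CPM in fibroblast-like cells. Of 13 related genes, which were other integrin beta chains, TGF-beta ligands, latency proteins and receptors, 12 reached the floor. Against cardiomyocytes 4 were higher, 1 lower and 7 between. Against fibroblast-like cells none was higher, 3 were lower and 9 were between. Of all genes at the floor, 15.3% were higher and 14.1% lower against cardiomyocytes, and 9.79% and 12.2% against fibroblast-like cells. The TGF-beta receptor gene TGFBR1 was at 88.9 CPM in epithelial-type cells, 17.2 CPM in cardiomyocytes and 51.2 CPM in fibroblast-like cells. The ligand gene TGFB1 was at 6.94 CPM in epithelial-type cells, 10.4 CPM in cardiomyocytes and 42.4 CPM in fibroblast-like cells.

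HPGD encodes 15-hydroxyprostaglandin dehydrogenase, which carries out the first step in the breakdown of prostaglandins and is known from the fetal membranes and placenta. It had 323.1 CPM in epithelial-type cells, 20.5 CPM in cardiomyocytes and 22.4 CPM in fibroblast-like cells, with ratios of 15.8 (15.1 to 16.6) and 14.4 (12.8 to 16.3). The uptake carrier of prostaglandins, SLCO2A1, had 17.6 CPM in epithelial-type cells, 1.54 CPM in cardiomyocytes and 1.04 CPM in fibroblast-like cells. The prostaglandin E synthase gene PTGES had 35.3 CPM in epithelial-type cells, 3.02 CPM in cardiomyocytes and 8.80 CPM in fibroblast-like cells. The prostaglandin D synthase gene PTGDS went the other way, with 21.7 CPM in epithelial-type cells, 436.7 CPM in cardiomyocytes and 364.1 CPM in fibroblast-like cells. Of 18 genes of prostaglandin synthesis, transport, reception and breakdown, 10 reached the floor, and 4 were higher, 3 lower and 3 between against cardiomyocytes. Against fibroblast-like cells 2 were higher, 4 lower and 4 between, so the list as a whole had no single direction. The shares over all genes at the floor were 15.3% higher and 14.1% lower against cardiomyocytes, and 9.79% and 12.2% against fibroblast-like cells.

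ELF3 encodes an ETS family transcription factor of epithelia. It had 129.3 CPM in epithelial-type cells, 9.82 CPM in cardiomyocytes and 9.83 CPM in fibroblast-like cells, with ratios of 13.2 over both (12.3 to 14.1 and 10.9 to 15.96). The other epithelial members of the ETS family in the list were near 0, with 1.26 CPM of ELF5, 0.463 CPM of EHF and 0.112 CPM of SPDEF in epithelial-type cells. ELF1 and ELF2, which are expressed in most tissues, had 79.4 and 60.7 CPM there. Of the 6 genes of that list 3 reached the floor, with 2 higher and 1 between against cardiomyocytes and 1 in each direction and 1 between against fibroblast-like cells. Over all genes at the floor, 15.3% were higher and 14.1% lower against cardiomyocytes, and 9.79% and 12.2% against fibroblast-like cells.

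L1TD1 encodes an RNA-binding protein derived from the LINE-1 retrotransposon that is abundant in pluripotent stem cells. It had 148.3 CPM in epithelial-type cells, 9.59 CPM in cardiomyocytes and 12.5 CPM in fibroblast-like cells, with ratios of 15.5 (14.4 to 16.6) and 11.9 (10.1 to 14.1). The pluripotency factors POU5F1, NANOG and SOX2 were near 0. POU5F1 was at 0.154 CPM, NANOG at 0.126 CPM and SOX2 at 0.014 CPM in epithelial-type cells, and none was over 0.345 CPM in either other class. Of the 5 genes of the LIN28 and L1TD1 RNA-binding list, LIN28B and TRIM71 were higher in epithelial-type cells than in both other classes. LIN28B, a repressor of let-7 microRNA processing, had 36.8 CPM in epithelial-type cells, 5.17 CPM in cardiomyocytes and 7.07 CPM in fibroblast-like cells. TRIM71 had 22.5 CPM in epithelial-type cells, 2.48 CPM in cardiomyocytes and 1.64 CPM in fibroblast-like cells.

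IGDCC3, also called PUNC, encodes an embryonic surface protein of the immunoglobulin superfamily related to DCC. It had 303.4 CPM in epithelial-type cells, 28.2 CPM in cardiomyocytes and 45.6 CPM in fibroblast-like cells. Its ratios were the smallest of the 8, at 10.8 (10.3 to 11.2) over cardiomyocytes and 6.65 (6.1 to 7.26) over fibroblast-like cells. Its level in fibroblast-like cells was above that in cardiomyocytes beyond counting error. Of its 4 relatives, PRTG (protogenin) was higher in epithelial-type cells than in both other classes, at 152.7 CPM there, 19.3 CPM in cardiomyocytes and 14.1 CPM in fibroblast-like cells. IGDCC4 was at 0.687 CPM in epithelial-type cells, 1.94 CPM in cardiomyocytes and 22.6 CPM in fibroblast-like cells.

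XAGE2 is an X-linked cancer-testis gene, a class of genes otherwise found mainly in germ cells, placenta and tumours. It had 115.8 CPM in epithelial-type cells, 6.95 CPM in cardiomyocytes and 8.80 CPM in fibroblast-like cells, with ratios of 16.7 (15.4 to 18.1) and 13.2 (10.8 to 16.2). RefSeq lists XAGE2B as a synonym of this gene, and the matrix held 1 row for both, so reads from near-identical copies could not be told apart. Of 10 related cancer-testis genes on the list 9 had a row in the matrix, and none reached the floor. The 9 summed to 0.112 CPM in epithelial-type cells.

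All 8 genes reached the floor of 5 CPM, which their level in epithelial-type cells alone was enough for. All 8 were at a ratio of 2 or more over cardiomyocytes, where 15.3% of 11425 genes at the floor were, and over fibroblast-like cells, where 9.79% were. At a ratio of 10 or more the counts were 8 of 8 over cardiomyocytes (2.28% of genes) and 7 of 8 over fibroblast-like cells (1.3% of genes), the exception being IGDCC3. Without the limit of 35000 UMIs per cell, 0 of 8 reached a ratio of 10 over cardiomyocytes and 3 of 8 (XAGE2, VTCN1 and GABRP) over fibroblast-like cells. Since the genes were picked for this contrast, nothing is read from these counts. The median log2 ratio of the 8 was 3.89 over cardiomyocytes, beside 0.10 over all 11425 genes, and 3.78 over fibroblast-like cells, beside 0.06. Among the 3260 genes at 50 CPM or more averaged over the classes, VTCN1, HPGD and L1TD1 were among the 10 with the highest ratio over cardiomyocytes. The other 7 were CAPN6, MME, TCIM, ANXA1, COL12A1 and the junction genes CLDN6 and CDH1. The 10 highest over fibroblast-like cells held VTCN1 and GABRP together with NDNF, CLDN7, CST6, TFAP2A, ANKRD1, CLDN6, RAB25 and the rule gene WNT6. The top 10 spanned ratios of only 15.4 to 17.3 over cardiomyocytes.

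The levels in cardiomyocytes and fibroblast-like cells were not spread evenly over those cells. The 10% of cardiomyocytes with the most counts of the 8 genes (552 cells) held 82.4% of all such counts in that class, and the top 62 fibroblast-like cells held 73.9%. In epithelial-type cells the top 10% held 19.4%. Among cardiomyocytes, the level followed the counts of GATA3, CLDN4 and WNT6, the genes that define the epithelial-type class. In the 3908 cardiomyocytes with 0 counts of these, VTCN1 had 5.36 CPM and GABRP 21.9 CPM. In the 1191 with 1 to 3, VTCN1 had 10.0 CPM and GABRP 38.2 CPM. In the 417 with 4 or more, VTCN1 had 241.7 CPM and GABRP 774.9 CPM. The median depth in these 3 groups was 15439, 17194 and 24819 UMIs, and TNNT2 was at 7108, 6903 and 4046 CPM. Scrublet, which scores each barcode's likeness to simulated pairs of cells, called 92.6% of these 417 cells doublets, 2.47% of the other cardiomyocytes and 1.32% of epithelial-type cells. Among the 49 fibroblast-like cells with 4 or more counts of the rule genes it called 77.6%.

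**Figure D1:**
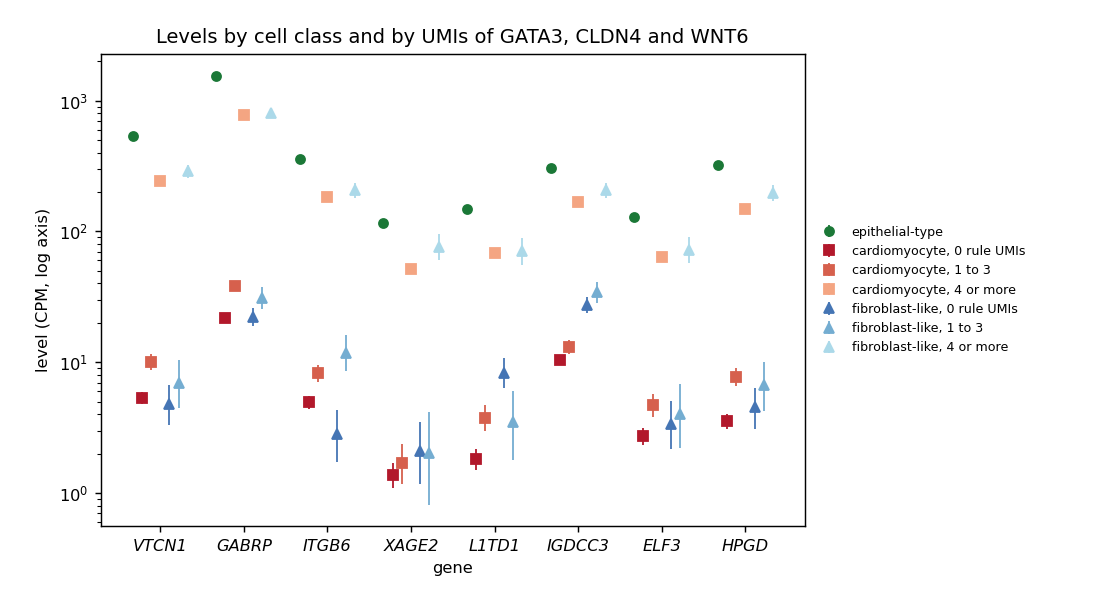
Level of each of the 8 genes (y axis, CPM on a log scale) in epithelial-type cells, and in cardiomyocytes and fibroblast-like cells split by their UMIs of the rule genes GATA3, CLDN4 and WNT6; points are summed counts over summed UMIs, and bars are exact 95% counting intervals. Cardiomyocytes with 4 or more rule UMIs (GABRP, 774.9 CPM) sit far above those with 0 (21.9 CPM) and below epithelial-type cells (1549 CPM).

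Taking as comparison only the cardiomyocytes with fewer than 4 rule UMIs, a choice made after these values were seen, widened every ratio. VTCN1 was then 81.9-fold (75.2 to 89.3) higher in epithelial-type cells, HPGD 70.1-fold and GABRP 59.5-fold, while ELF3 was 40.2-fold and IGDCC3 27.3-fold higher. Over fibroblast-like cells with fewer than 4 rule UMIs, the ratios were 97.3 for VTCN1, 22.0 for L1TD1 and 10.2 for IGDCC3. The narrow band of ratios seen over all cardiomyocytes thus became a range of 27.3 to 81.9.

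The make-up of the remaining counts differed between classes. IGDCC3 made up 8.77% of the counts of the 8 genes in epithelial-type cells, 18.2% in cardiomyocytes with fewer than 4 rule UMIs and 35.5% in fibroblast-like cells with fewer than 4. GABRP made up 44.8%, 42.6% and 30.01% in the same order of classes. VTCN1 made up 15.5%, 10.7% and 6.57%. IGDCC3 was the gene whose share departed most from that in epithelial-type cells.

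The edge of the epithelial-type class was not sharp. Cells with low TNNT2 and COL1A1 and 3 rule UMIs, just outside the class (55 cells, median 6539 UMIs), had 326.7 CPM of VTCN1, 1108 CPM of GABRP and 130.7 CPM of HPGD. Cells with 4 rule UMIs, just inside (71 cells, median 8861 UMIs), had 431.0, 1371 and 203.0 CPM of the same genes. Cells with 0 rule UMIs (235 cells, median 14666 UMIs) had 11.6 CPM of VTCN1. The rule counts UMIs and not CPM, so shallow cells fall outside it more easily. Cluster 15, introduced below, had a median of 2502 UMIs, with 13.3% of its cells in the class, and still had 991.8 CPM of GABRP. Near the TNNT2 limits, 172 kept cells were within 10% of 2000 CPM and 165 within 10% of 1000 CPM.

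Within the class, the 8 genes did not all follow the rule genes. From cells with 5 to 9 rule UMIs through 10 to 19 and 20 to 39 to 40 or more, ELF3 had 84.6, 95.7, 144.7 and 204.9 CPM. VTCN1 had 454.0, 518.4, 549.3 and 599.7 CPM, and XAGE2 90.5, 105.8, 120.0 and 153.5 CPM. GABRP stayed between 1468 and 1568 CPM, ITGB6 between 350.2 and 359.3 CPM and L1TD1 between 134.0 and 153.4 CPM. The groups with more rule UMIs were also deeper, with medians of 10737 UMIs at the low end and 23480 UMIs at the high end.

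Several of the 8 genes, which were picked for a high level in an epithelial cell group, were found in most single epithelial-type cells. Each cell was thinned to 5000 UMIs, which left out 64 epithelial-type cells, 289 cardiomyocytes and 20 fibroblast-like cells that were shallower. A median of 5 of the 8 genes then had a UMI in an epithelial-type cell, and of 0 in a cardiomyocyte or fibroblast-like cell. At least 4 genes were found in 90.02% of epithelial-type cells (89.0% to 90.9%), in 4.40% of cardiomyocytes (3.86% to 4.99%) and in 5.70% of fibroblast-like cells (3.98% to 7.87%). Unthinned, the shares were 98.5%, 8.10% and 9.24%. Only 2 of 3939 epithelial-type cells had none of the 8, and 63 (1.60%) had all. At least 6 of the 8 were found in 38.1% of epithelial-type cells, 0.631% of cardiomyocytes and 1.51% of fibroblast-like cells.

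**Figure D2:**
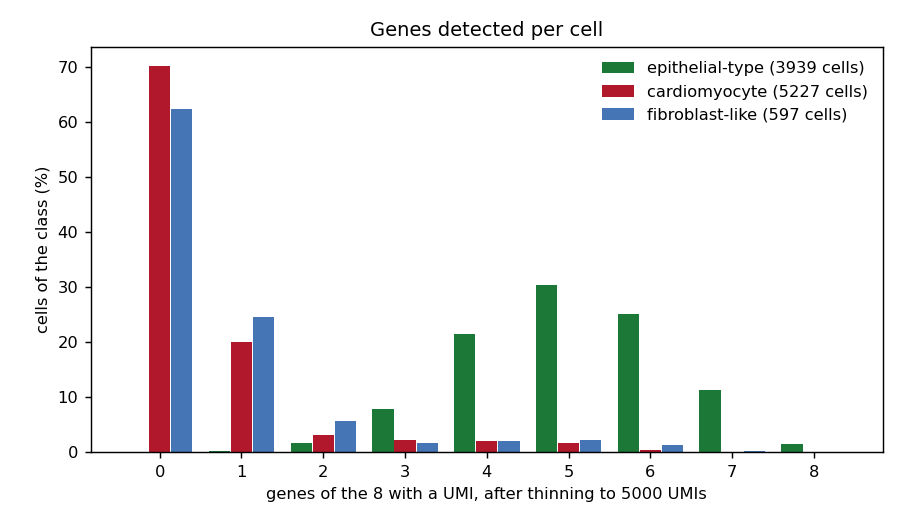
Number of the 8 genes with at least 1 UMI per cell (x axis) after thinning to 5000 UMIs, as a share of the cells of each class (y axis, %). Epithelial-type cells centre on 5 genes (30.4% of cells), while 70.2% of cardiomyocytes and 62.3% of fibroblast-like cells have 0.

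Detection of the single genes after thinning ranged from 99.2% of epithelial-type cells for GABRP to 30.9% for XAGE2. VTCN1 was detected in 87.8% of epithelial-type cells, 7.65% of cardiomyocytes and 9.05% of fibroblast-like cells. ITGB6 was detected in 75.5% of epithelial-type cells, IGDCC3 in 75.2%, HPGD in 55.9%, L1TD1 in 43.5% and ELF3 in 40.7%. In cardiomyocytes these 5 were between 2.74% and 8.99%. Unthinned, VTCN1 was in 98.1% of epithelial-type cells and 15.5% of cardiomyocytes, and XAGE2 in 51.1% and 5.31%. In cardiomyocytes with 0 rule UMIs the unthinned shares were 7.96% for VTCN1 and 28.2% for GABRP at a median of 15439 UMIs. How much of this came from RNA outside those cells was not tested.

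Among epithelial-type cells the counts of the genes were only weakly related. For all 28 pairs, the share of cells with both genes was 0.948 to 1.12 times the product of the single shares, a ratio that cannot rise far above 1 where a gene is in nearly every cell, as GABRP and VTCN1 were. The highest rank correlation of counts was 0.17 (VTCN1 with GABRP) and the lowest -0.11 (ITGB6 with L1TD1), over 3939 cells of 1 library thinned to 1 depth. In cardiomyocytes, where single shares were low and the ratio has no such ceiling, it was 2.86 to 7.45 for the 28 pairs. Over all thinned cardiomyocytes, a cell with a UMI of 1 gene tended to have others as well. These cells included those with 4 or more rule UMIs, of which Scrublet called 92.6% doublets before thinning. The ratio was not computed without them.

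By the ratio of variance to mean, HPGD was the most uneven of the 8 within the class. The variance of the thinned counts over cells was 4.1 times the mean for HPGD, 1.99 for XAGE2 and 1.21 to 1.88 for the other 6. HPGD had 0 UMIs in 44.2% of epithelial-type cells, against 21.0% for a Poisson count of the same mean, 1.56 UMIs. Its highest count was 33 UMIs, and the top 10% of cells held 47.5% of its UMIs. XAGE2, with a lower mean of 0.551 UMIs, had 0 in 69.1% of cells, against 57.6% for a Poisson count of its mean, and its top 10% of cells held 55.8%. GABRP, with a mean of 7.81 UMIs, had 0 in 0.762% of cells, and its top 10% of cells held 19.7%.

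The cells were also grouped without any of these genes. Leiden clustering of all kept cells, with the 8 genes, the rule genes, TNNT2, COL1A1, CD34 and mitochondrial and ribosomal protein genes left out, gave 23 clusters, which are called here by number and leading genes. Of the epithelial-type cells 3932 (98.2%) fell into 5 clusters. Cluster 0 (1404 epithelial-type cells) was led by GRIA4, CLDN3 and PRSS12, and cluster 1 (1327 cells) by KRT17, C15orf48 and KRT19. Clusters 10, 9 and 8 (394, 397 and 410 cells) were led by genes of DNA replication, histones and mitosis, among them MCM10, HIST1H1B and CCNB1. The 8 genes were high in cells that cluster together on the rest of their RNA. Since they were picked for a high level in an epithelial cell group, this is a description and not a test.

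**Figure D3:**
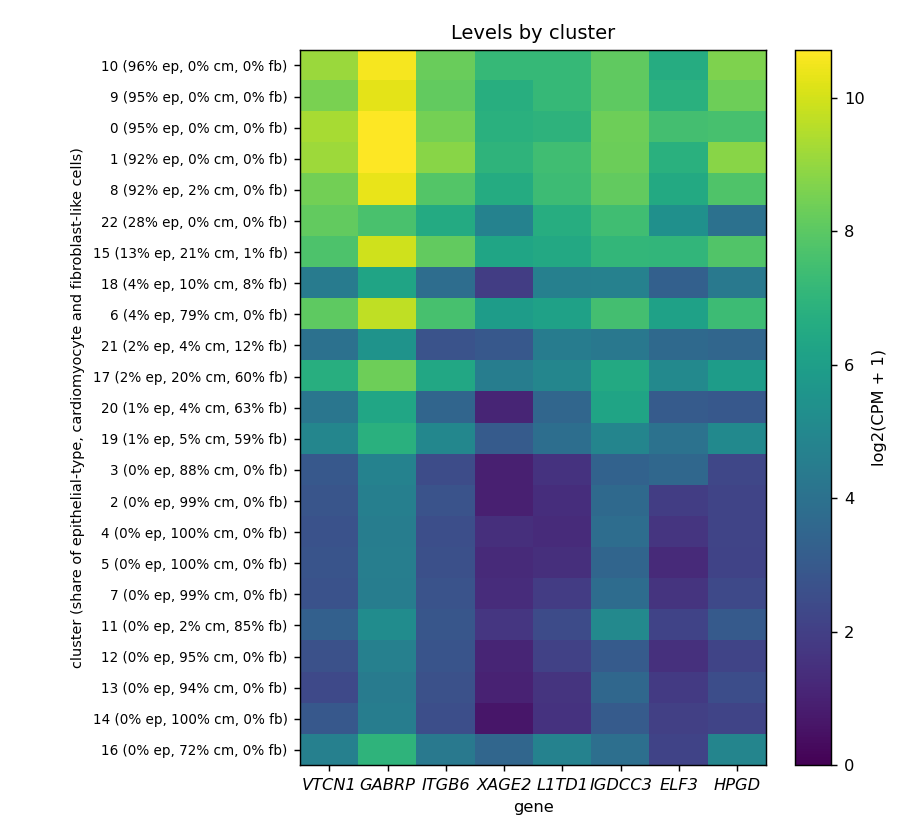
Level of the 8 genes, as log2(CPM + 1), in each of 23 clusters drawn without them; clusters run down the page by their share of epithelial-type cells (ep), with the shares of cardiomyocytes (cm) and fibroblast-like cells (fb) beside each number. The 5 clusters at the top, 91.7% to 95.6% epithelial-type, are bright for all 8 genes, and cluster 6, 78.7% cardiomyocytes, lies midway.

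Between the 5 clusters, HPGD differed the most and IGDCC3 the least. In epithelial-type cells, HPGD was at 195.8 CPM in cluster 0, 459.2 CPM in cluster 1, 216.3 CPM in cluster 8, 325.3 CPM in cluster 9 and 408.2 CPM in cluster 10, a 2.35-fold range. ELF3 was highest in cluster 0 at 180.0 CPM and lay between 91.4 and 112.6 CPM in the other 4. ITGB6 was highest in cluster 1 at 448.3 CPM, beside 358.6 CPM in cluster 0 and 232.6 CPM in cluster 8. L1TD1 was lowest in cluster 0 at 121.1 CPM and highest in cluster 1 at 173.2 CPM. VTCN1 was at 629.8 CPM in cluster 0 and 573.6 CPM in cluster 1, and IGDCC3 varied only 1.23-fold, between 269.1 and 330.0 CPM. The genes therefore did not rank both clusters the same way: ELF3 and VTCN1 were higher in cluster 0, HPGD, ITGB6 and L1TD1 in cluster 1.

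**Figure D4:**
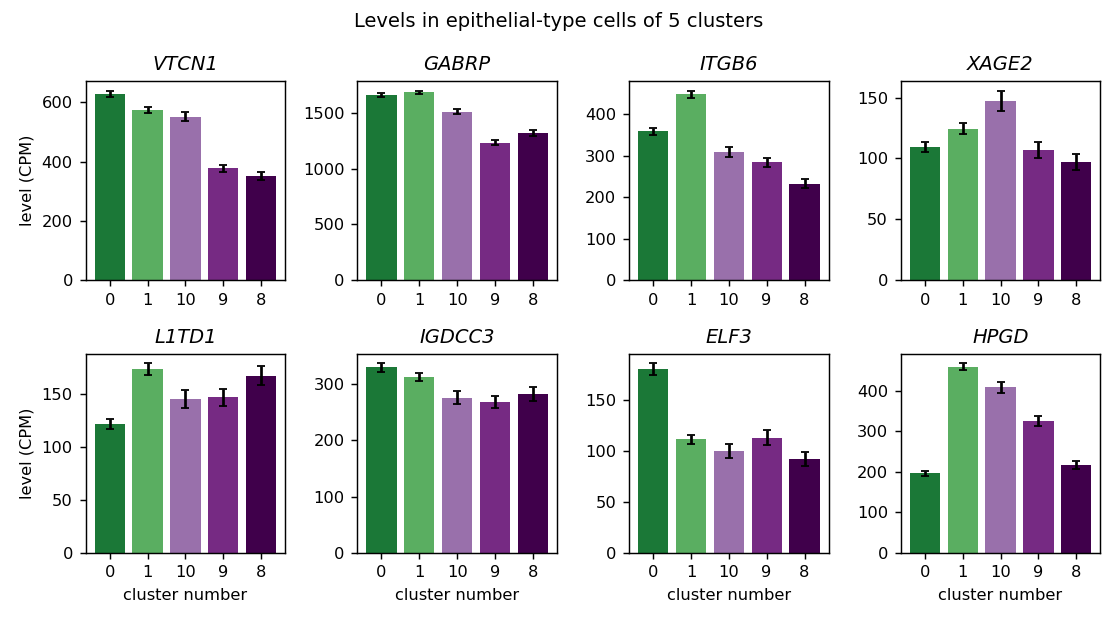
Level of each gene (y axis, CPM, from 0) in the epithelial-type cells of clusters 0 (led by GRIA4), 1 (KRT17), 10 (MCM10), 9 (HIST1H1B) and 8 (CCNB1), with exact 95% counting intervals. HPGD is 459.2 CPM in cluster 1 and 195.8 CPM in cluster 0, while ELF3 is 111.1 CPM in cluster 1 and 180.0 CPM in cluster 0.

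Several of the genes were lower in cells with transcripts of the proliferation genes MKI67 and TOP2A. Epithelial-type cells with 2 or more thinned UMIs of these (851 cells) were set beside those with 0 (2735 cells). VTCN1 was at 370.2 CPM in cells with 2 or more and 588.6 CPM in cells with 0, a ratio of 0.629 (0.595 to 0.664). ITGB6 was at 247.7 and 394.5 CPM in the same order, a ratio of 0.628 (0.587 to 0.671). ELF3 had a ratio of 0.758, GABRP of 0.800, XAGE2 of 0.817, HPGD of 0.898 and IGDCC3 of 0.928. L1TD1 was the only 1 of the 8 with a ratio above 1, at 1.11 (1.01 to 1.21). The cell cycle list itself did not separate the classes, since all 10 of its genes were within a ratio of 2 between epithelial-type cells and both others.

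Outside the epithelial-type clusters, a few clusters were higher in 1 or more of the genes than most clusters of cardiomyocytes. Only cells with fewer than 4 rule UMIs were used for this. Cluster 3, which was 87.7% cardiomyocytes and was led by GATM, SERPINF1, BCL2A1 and A2M, had 10.1 CPM of ELF3 (8.52 to 11.8, 151 UMIs in 975 cells). In the 7 other clusters with 94.3% or more cardiomyocytes ELF3 was at 1.39 to 3.04 CPM. Cluster 3 was not alone in this, as ELF3 was at 9.84 CPM (5.83 to 15.6) in cluster 21 and 6.37 CPM (3.94 to 9.74) in cluster 19, both described below. ELF3 made up 16.7% of the counts of the 8 genes in cluster 3, and VTCN1 (6.26 CPM) and GABRP (23.9 CPM) were at levels like those of the other cardiomyocyte clusters. L1TD1 was at 20.6 CPM in cluster 18, led by SPRR2F and LHX9, and at 18.6 CPM in cluster 21, led by ITLN1, beside 1.48 to 3.01 CPM in the 7 clusters. In the shallow cluster 16, with 72.25% cardiomyocytes, L1TD1 was at 26.6 CPM (14.9 to 43.8, 15 UMIs) and GABRP at 123.9 CPM. IGDCC3 was at 29.8, 33.0 and 66.8 CPM in clusters 11, 17 and 20, which were 84.6%, 60.0% and 63.2% fibroblast-like, beside 6.81 to 13.0 CPM in the 7 clusters. It was at 16.4 CPM (12.3 to 21.4) in cluster 19, which was 58.5% fibroblast-like. These clusters were singled out after their values were seen.

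Cluster 6 held 503 cells, 78.7% of them cardiomyocytes, at a median of 24678 UMIs. It had 263.9 CPM of VTCN1 and 828.0 CPM of GABRP, and Scrublet called 96.4% of its cells doublets. The part of such droplets in the levels of cluster 6 was not tested beyond that call.

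The genes most like each member were found by Pearson correlation of log2(CPM + 1) over the 23 clusters, which share 1 library and include 5 clusters that are high in all of these genes, so that high values are general. VTCN1 was most like CLDN6 (0.996), with RAB25 also among its 3 nearest. GABRP was most like WNT6 (0.996), CLDN4 and PRSS12, and ITGB6 like TFAP2C (0.990), P2RY6 and GABRP. XAGE2 was most like CLDN7 (0.985), P2RY6 and SPNS2, and L1TD1 like CLDN15 (0.984), AP1M2 and LRATD2. HPGD was most like NDNF (0.988), CST6 and GABRP, and ELF3 like TFAP2B (0.9695), MARVELD3 and GATA3. IGDCC3 was most like KCNJ2 (0.978), EDN1 and AMOT. Claudins, tight junction proteins of epithelia, were named for 4 of the 8, and the claudin named for GABRP was the rule gene CLDN4. WNT6 and GATA3 are rule genes too.

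Over the 3939 thinned epithelial-type cells, correlations of single genes were weak. ITGB6 went highest with COL3A1 (0.30), HPGD with IGFBP5 (0.25), ELF3 with CLDN4 (0.23) and VTCN1 with GABRP (0.18). The lowest for VTCN1 were TUBA1B (-0.23) and HMGB1 (-0.23), and for GABRP TOP2A (-0.19). These genes were named after the values were seen.

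Which tissue the set points to was looked at through lists of amnion, surface ectoderm, trophoblast and pluripotency genes. Of 14 amnion list genes 10 reached the floor. HAND1, TFAP2A, TFAP2B, KRT7 and IGFBP3 were higher in epithelial-type cells than in both other classes. HAND1, a transcription factor of extraembryonic and heart mesoderm and of amnion, was at 497.2 CPM in epithelial-type cells, 34.0 CPM in cardiomyocytes and 56.9 CPM in fibroblast-like cells. TFAP2A was at 141.1 CPM in epithelial-type cells, 9.71 CPM in cardiomyocytes and 8.28 CPM in fibroblast-like cells, and the simple-epithelium keratin gene KRT7 at 122.4, 7.44 and 7.504 CPM in the same order. Other list genes went the opposite way against cardiomyocytes. ISL1, used as an amnion marker and also a gene of sinoatrial pacemaker cells, was at 34.6 CPM in epithelial-type cells, 69.9 CPM in cardiomyocytes and 11.4 CPM in fibroblast-like cells. BMP4 was at 16.6, 216.9 and 44.5 CPM and TBX3 at 81.9, 192.6 and 79.5 CPM in that order. CLDN10 (0.126 CPM) and DLX5 (0.168 CPM) were near 0 in epithelial-type cells. In all, 5 of the 10 were higher, 4 lower and 1 between against cardiomyocytes, beside 15.3% of all genes higher and 14.1% lower. Against fibroblast-like cells 6 were higher, 2 lower and 2 between, beside 9.79% and 12.2% of all genes. POSTN, 1 of those lower in both, is also on the fibroblast list.

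Of 15 surface ectoderm list genes 6 reached the floor, and all 6 were higher in epithelial-type cells than in both other classes, beside 15.3% of all genes over cardiomyocytes and 9.79% over fibroblast-like cells. For each of the 6, the level in epithelial-type cells alone was enough for the floor. Among them were KRT17 (129.5 CPM in epithelial-type cells, 7.76 CPM in cardiomyocytes and 5.95 CPM in fibroblast-like cells), the grainyhead factor GRHL2 (70.9, 4.36 and 5.26 CPM), the cadherin gene CDH3 and TFAP2C. Several genes of basal and stratified epithelia were near 0. KRT5 was at 0.028 CPM, KRT14 at 0.182 CPM, KRT13 at 0.042 CPM and TP63, the master factor of stratified epithelia, at 0.168 CPM in epithelial-type cells. KRT4, also on the list, was at 7.79 CPM in epithelial-type cells. In all 5 of the 15 were under 1 CPM there.

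Trophoblast markers were mostly near 0. Only VGLL1 (57.9 CPM in epithelial-type cells, 3.72 CPM in cardiomyocytes and 3.19 CPM in fibroblast-like cells) and SDC1 (20.8, 4.70 and 16.7 CPM) of the 16 reached the floor. The hormone subunit gene CGA had 0.953 CPM and the cell fusion gene ERVW-1 0.435 CPM in epithelial-type cells, and 10 of the 16 were under 1 CPM there. Of 10 pluripotency genes only DNMT3B and DPPA4 reached the floor. DNMT3B was at 10.9 CPM in epithelial-type cells, 2.82 CPM in cardiomyocytes and 5.003 CPM in fibroblast-like cells, and DPPA4 at 1.65, 0.870 and 15.5 CPM.

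**Figure D5:**
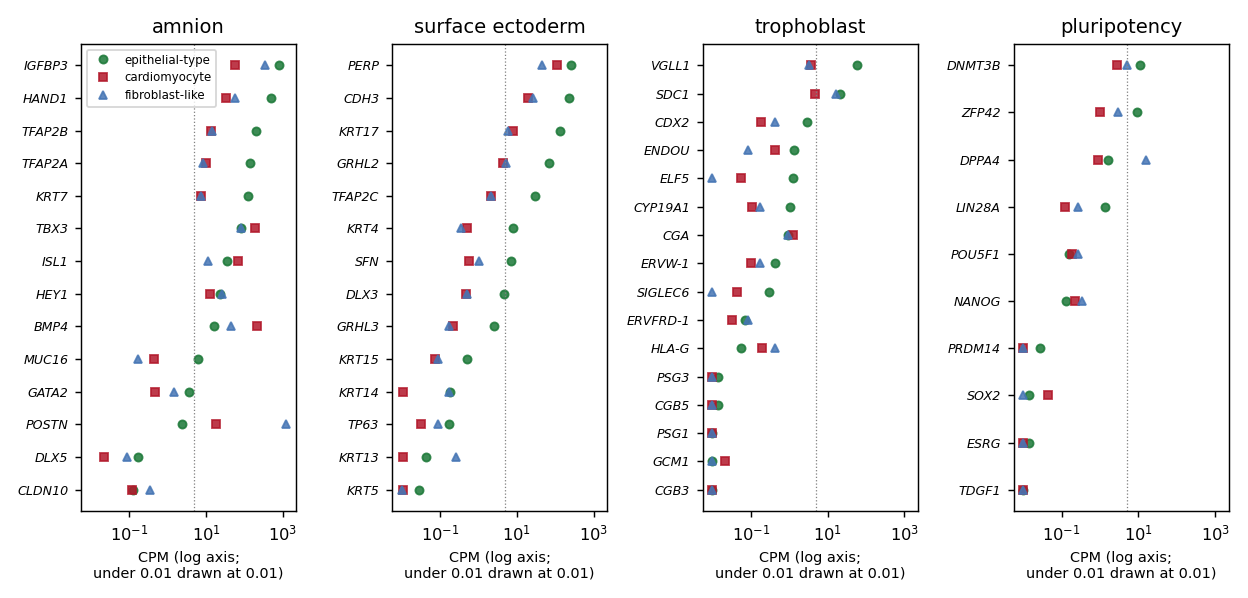
Level of genes of the amnion, surface ectoderm, trophoblast and pluripotency lists (x axis, CPM on a log scale, values under 0.01 drawn at 0.01) in epithelial-type cells, cardiomyocytes and fibroblast-like cells; the dotted line is at 5 CPM. HAND1 (497.2 CPM), TFAP2A (141.1 CPM), KRT17 (129.5 CPM) and GRHL2 (70.9 CPM) stand to the right in epithelial-type cells, while KRT5, TP63, POU5F1 and NANOG are under 1 CPM in all 3 classes.

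The label of the 8 genes was therefore met in part by these lists. All 14 genes of the epithelial list, which was chosen with earlier results known, were higher in epithelial-type cells than in both other classes. CDH1 was at 135.9 CPM in epithelial-type cells, 8.81 CPM in cardiomyocytes and 11.0 CPM in fibroblast-like cells. TFAP2A and KRT7 of the amnion list and TFAP2C, GRHL2 and KRT17 of the surface ectoderm list were higher in epithelial-type cells than in both other classes. BMP4 and POSTN of the amnion list were lower in epithelial-type cells than in both other classes. ISL1 and TBX3 of that list were lower than in cardiomyocytes only. Over fibroblast-like cells ISL1 was higher (ratio 3.04) and TBX3 between (1.03), and TBX3 was at 81.9 CPM in epithelial-type cells. KRT5 and TP63 of the surface ectoderm list and CLDN10 and DLX5 of the amnion list were under 1 CPM there. Against cardiomyocytes with fewer than 4 rule UMIs, TFAP2A was 67.9-fold, KRT7 69.1-fold, CDH1 75.7-fold and HAND1 52.0-fold higher in epithelial-type cells, which is within the range of the 8 genes. EPCAM was 8.01-fold higher, with 101.4 CPM left in those cardiomyocytes. No name of a tissue is given to the cells from these counts.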

How the data were processed

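RNA and antibody-tag libraries of 1 culture were analysed. The authors deposited whole-number UMI counts per gene and barcode, made with Cell Ranger 6.1.2 per the file headers, on GRCh38 per the submitters' processing notes; no normalization was recorded. The labels' protocols name a 3′ version 3 droplet kit and a sort of live single cells. Barcodes with under 1000 genes (1975), over 25% mitochondrial UMIs (1207) or over 35000 UMIs (908) were left out, 3618 of 14829 in all. Doublets were otherwise left in, and Scrublet (scanpy 1.11.5) calls, 6.59% of kept cells, were removed as an alternative. Per class, counts were added up and divided by its total UMIs (CPM). Ratios have exact conditional 95% intervals, and shares have exact Clopper-Pearson intervals. No p-value was computed, since cells are not replicates. The ratio was tested on simulated counts. A gene was called higher at a ratio of 2 or more, lower at 0.5 or less and between otherwise, at a floor of 5 CPM averaged over the classes. Thinning drew 5000 UMIs per cell without replacement. Clusters used 2000 variable genes, 30 components, 15 neighbours and resolution 1. Named genes are the 8 genes, list genes, the 10 highest ratios per comparison and the 3 most alike genes per member, and others are said to have been chosen after seeing values. The genes, lists and class rules were chosen with earlier results of these data known. Promoters and positions are from RefSeq GRCh38.p14. IGDCC3 has no promoter shown. Some genes of the lists are not reported here.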

Additional observations from a re-analysis of the deposited data

How the results depend on the processing

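All 8 genes stayed at a ratio of 2 or more over both classes under every alternative run, and no direction reversed. Their log2 ratios over cardiomyocytes, 3.43 to 4.06 as reported, were 2.67 to 3.12 without the limit of 35000 UMIs, 4.76 to 6.26 with Scrublet calls removed and 4.77 to 6.36 against cardiomyocytes with fewer than 4 rule UMIs, an alternative chosen after seeing the data. Over fibroblast-like cells, 2.73 to 4.11 as reported, they were 2.43 to 3.46, 3.10 to 5.32 and 3.35 to 6.60. Requiring 2 or 8 rule UMIs, or 200 CPM, moved none by more than counting error. The share of epithelial-type cells with 4 or more of the genes was 69.6% at 3000 UMIs, 98.9% at 10000 UMIs and 98.5% unthinned, with fewer cells kept at each greater thinning depth; the cause was not tested. Counts over all genes moved with their own limits. With a ratio of 4 or 0.25, 723 genes were higher and 823 lower against cardiomyocytes, and 429 higher and 749 lower against fibroblast-like cells. With a floor of 50 CPM these counts were 467, 441, 257 and 275 in the same order. With a floor of 1 CPM, 2583 genes were lower against cardiomyocytes, and 1789 higher and 2396 lower against fibroblast-like cells. Over all cells of the clusters that were mostly epithelial-type, 4 of the 8 genes differed by 1.5-fold or more between clusters at both resolution 0.5 and resolution 1, and over the epithelial-type cells alone, at resolution 1, XAGE2 did too (1.52-fold). With 1 culture, culture-to-culture variation is unknown, and genes near 1 CPM rest on few counts. No paired analysis was possible because there was 1 culture.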

Other observations

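The epithelial-type cells that carried the 8 genes also carried matrix genes usually linked to fibroblasts. COL3A1 was at 2532 CPM in epithelial-type cells, 331.4 CPM in cardiomyocytes and 7268 CPM in fibroblast-like cells. LUM, which encodes the proteoglycan lumican, was at 684.0 CPM in epithelial-type cells, 47.4 CPM in cardiomyocytes and 447.6 CPM in fibroblast-like cells, and DCN, which encodes decorin, at 529.6, 50.01 and 1287 CPM. PDGFRA, a receptor of mesenchymal cells, was at 1.16 CPM in epithelial-type cells, 48.7 CPM in cardiomyocytes and 128.7 CPM in fibroblast-like cells. Of the 8 fibroblast list genes 7 reached the floor, with 4 higher, 2 lower and 1 between against cardiomyocytes and 0 higher, 5 lower and 2 between against fibroblast-like cells. Of 10 epicardial and mesothelial genes 6 reached the floor, with 3 higher, 2 lower and 1 between against cardiomyocytes and 0 higher, 3 lower and 3 between against fibroblast-like cells. Beside both lists, 15.3% of all genes at the floor were higher and 14.1% lower against cardiomyocytes, and 9.79% and 12.2% against fibroblast-like cells. WT1 was at 0.533 CPM in epithelial-type cells, 0.946 CPM in cardiomyocytes and 13.5 CPM in fibroblast-like cells. In each of the endoderm, neural, placode and endothelial lists 1 gene reached the floor, and the lists summed to 4.02, 18.4, 14.2 and 2.10 CPM in epithelial-type cells.

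The median CD34 tag level was 38 tag UMIs in epithelial-type cells, 85.5 in cardiomyocytes and 65 in fibroblast-like cells. In epithelial-type cells with 2 to 8 of the genes detected after thinning, the median lay between 36 and 42.5 tag UMIs. In the epithelial-type cells with 52.5 or more tag UMIs (1001 cells) VTCN1 was at 518.4 CPM and HPGD at 340.2 CPM, and in those with 29 or fewer (1074 cells) they were at 538.4 and 333.8 CPM. GABRP was at 1452 CPM in the 1001 cells and 1594 CPM in the 1074 cells, ITGB6 at 335.3 and 358.2 CPM, L1TD1 at 138.6 and 159.0 CPM, and the other 5 genes differed by less than these 3 in proportion. CD34 RNA had 2 UMIs in the 1001 cells and 4 UMIs in the 1074 cells.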
